A study of Mus musculus with 12 samples.

Results

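Gene expression was compared between tumours and non-tumour liver of an arsenite line of C3H/HeN mice, a strain whose males are known for liver tumours late in life. The comparison used 6 of the 12 arrays of the series, chosen by their labels alone: 3 numbered tumour samples and 3 numbered samples of non-tumour liver. All came from F2 males aged about 74 weeks. Sodium arsenite had been given only to the F0 dams of the line, at 85 ppm in their drinking water between gestation days 8 and 18, and their F1 offspring were mated at 10 weeks. Both groups share this ancestry, so neither is an unexposed control. The labels do not say which mouse gave which sample. Each p-value therefore sets a difference only against the spread of samples within a group, taken over the 4 groups of all 12 arrays. That spread may in part be technical.

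A liver tumour of the mouse is largely made of hepatocyte-like cells, and non-tumour liver holds hepatocytes with resident macrophages, endothelial, stellate and duct cells. Hepatocytes secrete most plasma and urinary proteins and fill peroxisomes and mitochondria with the enzymes of lipid and nitrogen metabolism. They also share the families of every epithelial cell: adhesion proteins, receptors, small GTPases, channels, the cytoskeleton and the machinery that makes and degrades proteins. In bulk tissue, fewer cells of a type and less RNA per cell cannot be told apart.

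Each array value below is the array's processed signal on the log2 scale, set against its own 75th percentile and given in the order of arrays 1 to 3. A difference is tumour minus non-tumour on that log2 scale with its standard error (SE), and 1 unit is 2-fold. The SE and the p come from a fit over the 4 groups of all 12 arrays, 3 per group, which share 1 estimate of the spread. Where the dimmer group had no array clearly over background, the difference is given as a bound, "at least" so many fold. A gene is called higher or lower when limma's adjusted p is below 0.05. Of the 18104 genes tested, 3090 were called higher in tumours (17.1%) and 5415 lower (29.9%), and 1627 (8.99%) and 1636 (9.04%) of them differed by at least 2-fold. The 6 values did not overlap between groups in 56.4% of genes. Differences of at least 16-fold were called in 192 genes upward and in 112 downward, and 463 genes called higher were well above background in the tumours alone. The median gene differed by -0.13, with quartiles at -0.49 and 0.26. This split moved with the scaling: calls upward made up 36.3% of all calls, against 48.1% after quantile normalization, 53.2% with the percentile taken over detected probes and 33.0% with the median as scale, where the median gene stood at -0.03, 0.03 and -0.20. The 3 tumour arrays lay on 1 slide and the 3 non-tumour arrays on another, so slide and group cannot be told apart.

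**Figure D1:**
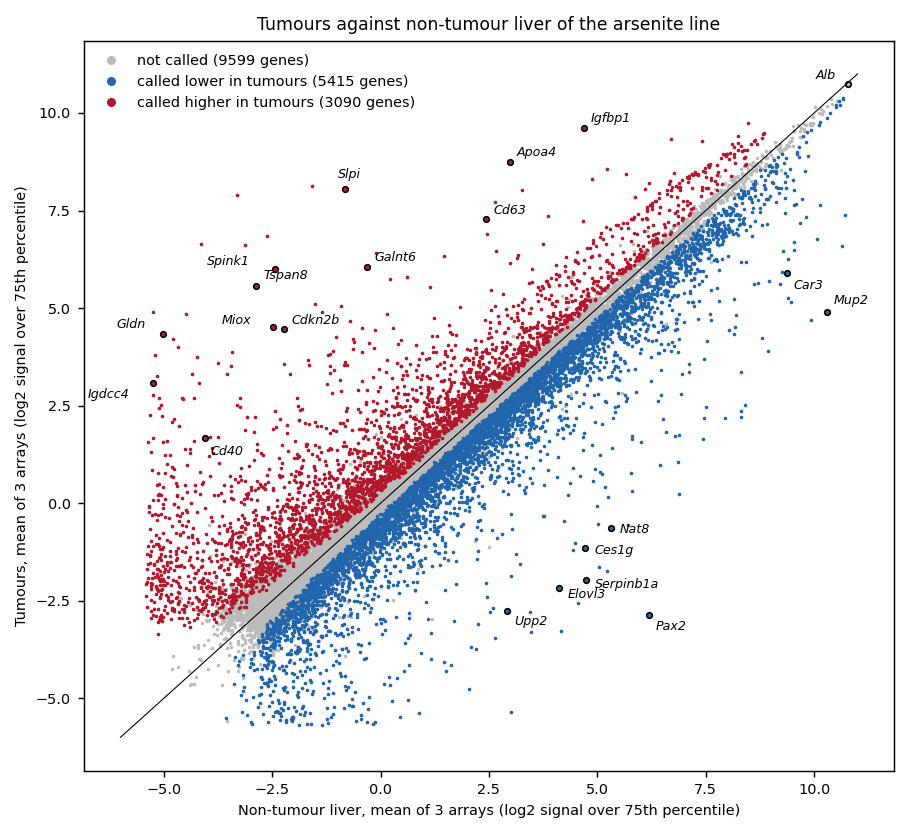
Mean log2 signal of the 3 tumour arrays (vertical) against the 3 non-tumour arrays (horizontal) for the 18104 genes tested, coloured by limma's call, with the line of equality. The 3090 genes called higher spread farthest from the line at low non-tumour signal, and Slpi, Spink1, Galnt6, Pax2 and Mup2 are among those far from it.

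The tissue label was checked with 10 hepatocyte markers. Alb, encoding serum albumin, read 10.61, 10.83 and 10.78 in tumours and 10.81, 10.84 and 10.72 in non-tumour liver, so that the groups overlapped. Of the 10 markers 1 was called higher (Apoa1, a lipoprotein component) and 2 lower (Cps1 of the urea cycle and Pck1 of gluconeogenesis), and the summed signal ranged from 12.86 to 13.13 in tumours and 13.01 to 13.16 in non-tumour liver. Signals of markers were summed before the log was taken, so the brightest marker weighs most in each sum. Markers of macrophages and Kupffer cells fell in 10 of 12 cases, with a median of -0.87 and summed signals of 5.71 to 6.55 against 7.18 to 7.62. Stellate cell markers were split, 4 higher and 6 lower of 12, and their sum was 4.61 to 5.12 against 6.23 to 6.35. Endothelial markers were 3 higher and 4 lower of 12, with sums of 6.77 to 7.09 against 7.13 to 7.33, and none of 5 tested bile duct markers was called. The 8 pancreatic acinar markers gave 3 genes past the filter on dim probes. The elastase Cela1 was at least 105-fold higher in tumours (adjusted p = 2.7e-08), the chymotrypsinogen gene Ctrb1 fell by 0.78 ± 0.11 and Amy2a5 differed by -0.59, the median of the 3, without a call, though it was called lower without tumour 1 (-1.41). Prss2, Cela2a, Cpa1, Cpb1 and Pnlip had no probe past the filter. The part of these cell types in the results that follow was not tested.

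Over the chromosomes, the share called higher ran from 13.6% on chromosome 8 to 21.5% on the X chromosome, and the share called lower from its lowest on chromosome 15 to 37.5% on chromosome 8. The median difference was lowest on chromosome 8 among the autosomes and X, at -0.23, and nearest to 0 on X, at -0.01. Chromosome Y had 9 genes tested, of which 6 were called lower and none higher. Tested features with a chromosome position, with or without a gene name, were then scanned for at least 5 in a row called in the same direction by at least 2-fold. Some runs reach 5 only through unnamed features, as on chromosome 17, and such features can lie at the same locus. There were 12 such runs, 6 of them higher and 6 lower, and most are clusters of duplicated genes whose probes can share target RNA, so single members of such clusters are uncertain.

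The longest run was the cluster of major urinary proteins on chromosome 4 (mm9, 59969824 to 61808925), with 21 features called lower. Major urinary proteins are pheromone carriers that hepatocytes secrete. All 11 tested Mup genes were lower, with a median difference of -3.60. Mup2 read 4.46, 3.94 and 6.33 in tumours and 10.40, 10.30 and 10.16 in non-tumour liver and differed by -5.38 ± 0.47 (adjusted p = 9.8e-06). Mup21 differed by -4.94 ± 0.46 and Mup3 by -3.60 ± 0.36. Tumour 3 was the highest of the tumours for Mup2, and all 3 tumours lay below all non-tumour arrays. Mup20, which encodes the male pheromone darcin, differed least, by -1.28 ± 0.45 (adjusted p = 0.036). Its arrays read 7.24, 6.98 and 8.17 in tumours and 9.04, 9.24 and 7.95 in non-tumour liver, so the groups overlapped at tumour 3, and with the sample number, which the labels give alike in both groups, as a block the call was lost (adjusted p = 0.14). It was also lost without tumour 1 or 2 or non-tumour array 1 or 2 (adjusted p from 0.098 to 0.12 by limma), after quantile normalization and with the percentile over detected probes. A second Mup20 probe gave -3.44. The promoters of the cluster are shown for Mup2 and Mup19 and for Mup3 and Mup21, which lie at its end, to show what the neighbours share. They are the 150 bases before the start site, from RefSeq's promoter table (GRCm38.p6), 5′ to 3′ on the minus strand, with TATATAA in capitals.
Mup2 (chr4:60139857-60140006): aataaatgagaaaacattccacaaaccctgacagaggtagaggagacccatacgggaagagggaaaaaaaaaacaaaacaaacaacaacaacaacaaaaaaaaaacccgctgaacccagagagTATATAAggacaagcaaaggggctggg
Mup19 (chr4:61782225-61782374): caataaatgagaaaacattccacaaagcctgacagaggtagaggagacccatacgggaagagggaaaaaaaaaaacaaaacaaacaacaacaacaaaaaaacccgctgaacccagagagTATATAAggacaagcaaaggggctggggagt
Mup3 (chr4:62087318-62087467): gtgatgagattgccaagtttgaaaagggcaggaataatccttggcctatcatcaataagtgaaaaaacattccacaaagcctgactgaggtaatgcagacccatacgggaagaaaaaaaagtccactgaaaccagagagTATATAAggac
Mup21 (chr4:62150842-62150991): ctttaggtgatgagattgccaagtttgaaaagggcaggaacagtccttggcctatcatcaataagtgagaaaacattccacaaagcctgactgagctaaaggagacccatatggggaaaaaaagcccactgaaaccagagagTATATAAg
The letters TATATAA, searched on both strands of the 250 bases before the start site, were found in all 9 Mup promoters of the run that matched the table and in 3.04% of the 32851 promoters in the table. The longest stretch that Mup2 shares base for base with Mup19 in those 250 bases is 121 bases, against 20 with Mup3.

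On the X chromosome (mm9, 132601237 to 132805966) 7 neighbours in a row rose: Bex2, Bex1, Bex4, Tceal8, Tceal5, Tceal9 and Bex3. Bex and Tceal genes encode small related proteins best known from brain, where Bex3 associates with the neurotrophin receptor. Bex2 read 1.04, 2.10 and 1.85 in tumours and -5.16, -5.24 and -5.34 in non-tumour liver, and was well above background in the tumours alone, at least 31.3-fold higher (adjusted p = 1.9e-08). Tceal5 was at least 64.3-fold higher. Bex1 was at least 25.8-fold higher, and its tumour arrays read 0.80, 2.63 and 0.72. Bex3, the member with signal in both tissues, read 0.56, 1.61 and 0.11 in tumours and -1.91, -1.58 and -2.01 in non-tumour liver and rose by 2.59 ± 0.38. Bex4 read -3.03, 0.16 and -2.02 in tumours and -4.64, -2.52 and -3.98 in non-tumour liver and differed by 2.08 ± 0.77 (adjusted p = 0.047). Every tumour array of Bex2, Bex1 and Bex3 lay above every non-tumour array, while for Bex4 tumour 1 lay below non-tumour array 2. The Bex4 call was lost after normexp background correction and without tumour 2 or 3 or non-tumour array 1 or 3 (adjusted p from 0.065 to 0.16 by limma). It was also lost in a fit of only these 6 arrays (adjusted p = 0.12 by limma) and without the filter on dim probes (adjusted p = 0.078 by limma). Promoters of the Bex genes pair up by sequence, and the pairs are shown because all 4 genes were called higher. For Bex2 and Bex3, capitals mark the longest stretch that both share base for base in the 250 bases before the start site, 145 bases (200 bases shown, GRCm38.p6).
Bex2 (chrX:136068237-136068436, minus strand): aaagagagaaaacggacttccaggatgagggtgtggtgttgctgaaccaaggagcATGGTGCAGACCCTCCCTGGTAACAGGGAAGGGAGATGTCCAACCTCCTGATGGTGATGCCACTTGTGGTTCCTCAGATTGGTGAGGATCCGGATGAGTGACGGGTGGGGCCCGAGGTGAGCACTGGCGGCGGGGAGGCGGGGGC
Bex3 (chrX:136270053-136270252, plus strand): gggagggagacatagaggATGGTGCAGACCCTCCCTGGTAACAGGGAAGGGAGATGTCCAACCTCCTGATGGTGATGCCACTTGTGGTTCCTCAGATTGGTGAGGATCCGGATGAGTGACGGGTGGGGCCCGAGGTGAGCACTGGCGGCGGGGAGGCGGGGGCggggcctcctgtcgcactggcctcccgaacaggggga
For Bex1 and Bex4 the shared stretch is 221 bases (240 bases shown, same marking).
Bex1 (chrX:136215514-136215753, minus strand): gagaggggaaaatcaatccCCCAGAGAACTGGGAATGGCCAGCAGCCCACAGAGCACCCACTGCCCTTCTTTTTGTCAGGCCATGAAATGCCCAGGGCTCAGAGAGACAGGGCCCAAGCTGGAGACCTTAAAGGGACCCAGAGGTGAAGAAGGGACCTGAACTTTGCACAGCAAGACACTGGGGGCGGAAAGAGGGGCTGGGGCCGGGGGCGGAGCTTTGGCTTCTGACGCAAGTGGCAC
Bex4 (chrX:136138756-136138995, plus strand): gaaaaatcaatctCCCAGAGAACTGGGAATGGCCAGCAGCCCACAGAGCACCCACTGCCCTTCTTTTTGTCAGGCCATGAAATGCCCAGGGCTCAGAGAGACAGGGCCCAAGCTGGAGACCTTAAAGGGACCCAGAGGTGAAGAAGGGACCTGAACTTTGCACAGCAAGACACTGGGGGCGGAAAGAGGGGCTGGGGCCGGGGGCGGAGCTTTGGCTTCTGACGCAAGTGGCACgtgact
Between the pairs, Bex2 and Bex4 share no stretch longer than 8 bases and Bex1 and Bex3 none longer than 9. The promoters of this run held a median of 7 CG dinucleotides, against 6 over all promoters in the table and 2 in the Mup run.

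The other runs upward were shorter. On chromosome 7 (mm9, 14364926 to 14811254) 4 sulfotransferases rose, enzymes that add sulfate to steroids and bile acids: Sult2a6 was at least 137-fold higher and Sult2a2 at least 130-fold. Sult2a1 was at least 10.4-fold higher and Sult2a3 at least 2.37-fold. Farther along (51371648 to 51484325) 6 tissue kallikreins rose, serine proteases made mainly by salivary gland. Their founder Klk1 read 1.52, 2.41 and 2.22 in tumours and -1.17, -0.41 and -1.0 in non-tumour liver, with no overlap, and rose by 2.91 ± 0.30 (adjusted p = 3.0e-05), and the lowest of the run was Klk1b22 at 1.82 ± 0.24. On chromosome 2 (25217225 to 25281861) 5 neighbours of different families rose. Sapcd2 was at least 10.0-fold higher, and Uap1l1 rose by 3.39 ± 0.13, the ectonucleotidase Entpd2 by 2.65 ± 0.12, Npdc1 by 2.18 ± 0.22 and the fucosyltransferase Fut7 by 4.04 ± 0.37. On chromosome 3 (27315729 to 28569094) Fndc3b, Tmem212, Pld1 and Tnik rose together, Fndc3b most, by 2.93 ± 0.29. A run on chromosome 17 (12875253 to 13013743) held Igf2r, the receptor that clears IGF2, and Airn, the antisense RNA that starts within it. Airn read 0.54, 0.27 and -0.03 in tumours and -1.25, -1.38 and -1.37 in non-tumour liver and rose by 1.59 ± 0.14 (adjusted p = 9.5e-06), beside 1.19 ± 0.13 for Igf2r, and a second Airn probe gave 3.35.

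Runs downward hold families of drug and lipid metabolism. On chromosome 8 (94850501 to 95877360) 7 carboxylesterases of the Ces1 group fell, hydrolases of lipids and drugs. Ces1g, which hydrolyses lipids in liver, read -1.54, -1.85 and -0.07 in tumours and 4.90, 4.54 and 4.71 in non-tumour liver and differed by -5.87 ± 0.36 (adjusted p = 1.0e-06), while Ces1c, the esterase of mouse plasma, differed by -1.47 ± 0.17. On chromosome 19 (39116674 to 40254441) 10 named Cyp2c genes were lower, from Cyp2c54 at -6.09 ± 0.57 to Cyp2c70 at -1.77 ± 0.22. The glutathione transferase Gsta2 and 2 predicted relatives on chromosome 9 (78116774 to 78178915) were called lower, and Gsta2 fell by 5.09 ± 0.21. On chromosome 7 (126630135 to 126806028) the medium-chain fatty acid activating enzymes Acsm5 and Acsm1 differed by -3.38 ± 0.30 and -2.80 ± 0.15, Acsm2 was at least 3.40-fold lower, and their neighbour Pdilt, a chaperone otherwise known from testis, fell by 4.79 ± 0.55.

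**Figure D2:**
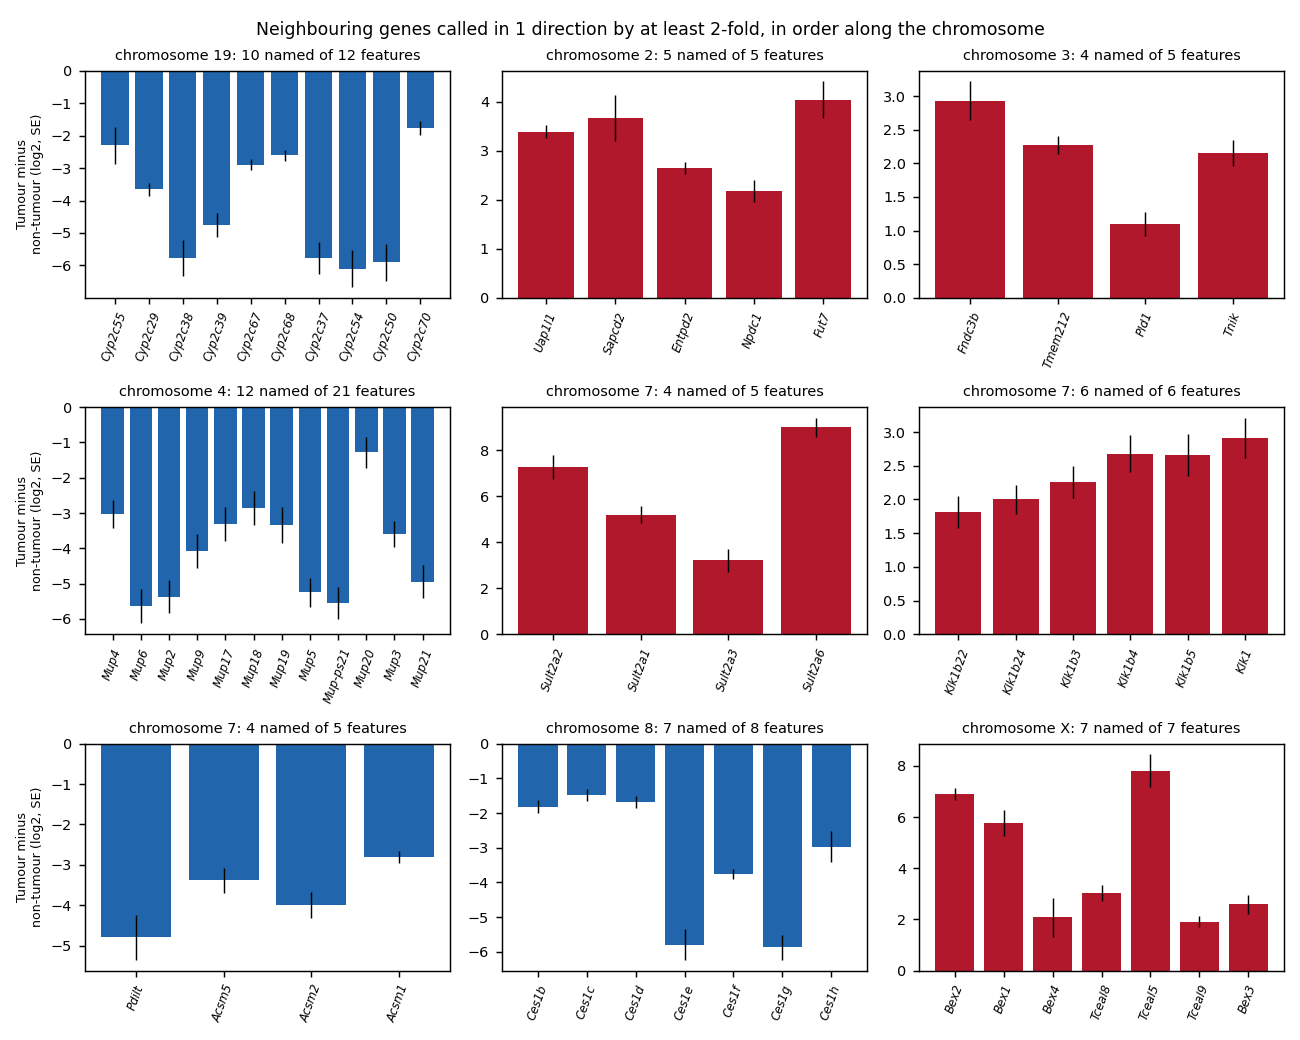
Tumour minus non-tumour difference (log2, bars) with the SE of the fit (lines) for the named genes of 9 runs, in order along each chromosome. Bars point up in 5 runs and down in 4, and Mup20 is the shortest bar of the chromosome 4 run at -1.28.

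Among the largest rises were genes of several unrelated kinds. Spink1, a trypsin inhibitor secreted by pancreas, read 5.79, 6.82 and 5.41 in tumours and -2.02, -2.0 and -3.27 in non-tumour liver and rose by 8.44 ± 0.43 (adjusted p = 3.6e-07). Miox, the kidney enzyme that opens inositol, rose by 7.0 ± 0.27, from -1.98, -2.47 and -3.02 to 4.83, 4.61 and 4.08. Cdkn2b, a cell cycle inhibitor on chromosome 4, probe at 88952276 to 88952335 on mm9, read 4.20, 4.90 and 4.25 in tumours and -2.48, -2.05 and -2.14 in non-tumour liver and rose by 6.67 ± 0.22 (adjusted p = 1.7e-08). In each of the 3 genes all tumours lay above all non-tumour arrays by more than 5 log2 units. Krt23, an epithelial keratin, rose by 6.25 ± 0.45, the intestinal keratin Krt20 was at least 62.7-fold higher, and the gut brush border protease Mep1b rose by 5.83 ± 0.77. Apoa4, an apolipoprotein of intestine and liver, read 8.31, 9.04 and 8.91 in tumours and 2.89, 3.40 and 2.64 in non-tumour liver and rose by 5.78 ± 0.22. Genes well above background in tumours alone included Igdcc4 (at least 83.2-fold), a cell-surface immunoglobulin protein, Inava (at least 67.4-fold), an adaptor of innate receptors, Mtcl1 (at least 63.6-fold), which crosslinks microtubules, and Psrc1 (at least 56.9-fold), a spindle protein. Pnpla5, a lipase of lipid droplets, rose by 5.89 ± 0.58.

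Among the largest falls, Serpinb1a, an inhibitor of neutrophil proteases, read -2.87, -3.22 and 0.16 in tumours and 3.72, 4.27 and 6.21 in non-tumour liver and differed by -6.71 ± 0.85 (adjusted p = 0.00012). The groups did not overlap, although the arrays of each spread over more than 2 log2 units. Etnppl, which breaks down phosphoethanolamine, differed by -6.26 ± 0.70, and Nat8, an acetyltransferase of cysteine conjugates, by -5.94 ± 0.40. Nat8 read -0.10, -1.77 and -0.04 in tumours and 5.61, 5.47 and 4.83 in non-tumour liver, and all tumours were low. Upp2, a uridine phosphorylase of liver, differed by -5.67 ± 0.74, the G protein subunit Gna14 by -5.53 ± 0.58, the sulfotransferase Sult5a1 by -5.94 ± 0.43 and the glutamate transporter Slc1a2 by -5.35 ± 0.85. Cyp2g1, a cytochrome P450 best known from nasal mucosa, was at least 42.9-fold lower. Hnf4aos, the RNA antisense to the hepatocyte factor gene Hnf4a, differed by -5.28 ± 0.41.

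Genes were next grouped by symbol into 87 families, which held 2879 of the genes tested, and each family's counts are read against 17.1% called higher and 29.9% called lower over all genes. The medians are read against -0.13. Counts and medians under another scaling are read against all genes under that scaling. After quantile normalization 4122 of all genes were higher and 4450 lower, with a median of -0.03. With the percentile over detected probes these were 4404, 3869 and 0.03. The median as scale gave 2401, 4872 and -0.20, and normexp background correction 3226, 5464 and -0.10. Under a scaling, the sample number as a block or a left-out array, a count moved by more than 1.5 times and at least 2 genes in 45 of the families. A second count or median is given beside those where the text turns on the first, and not every such move is printed.

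**Figure D3:**
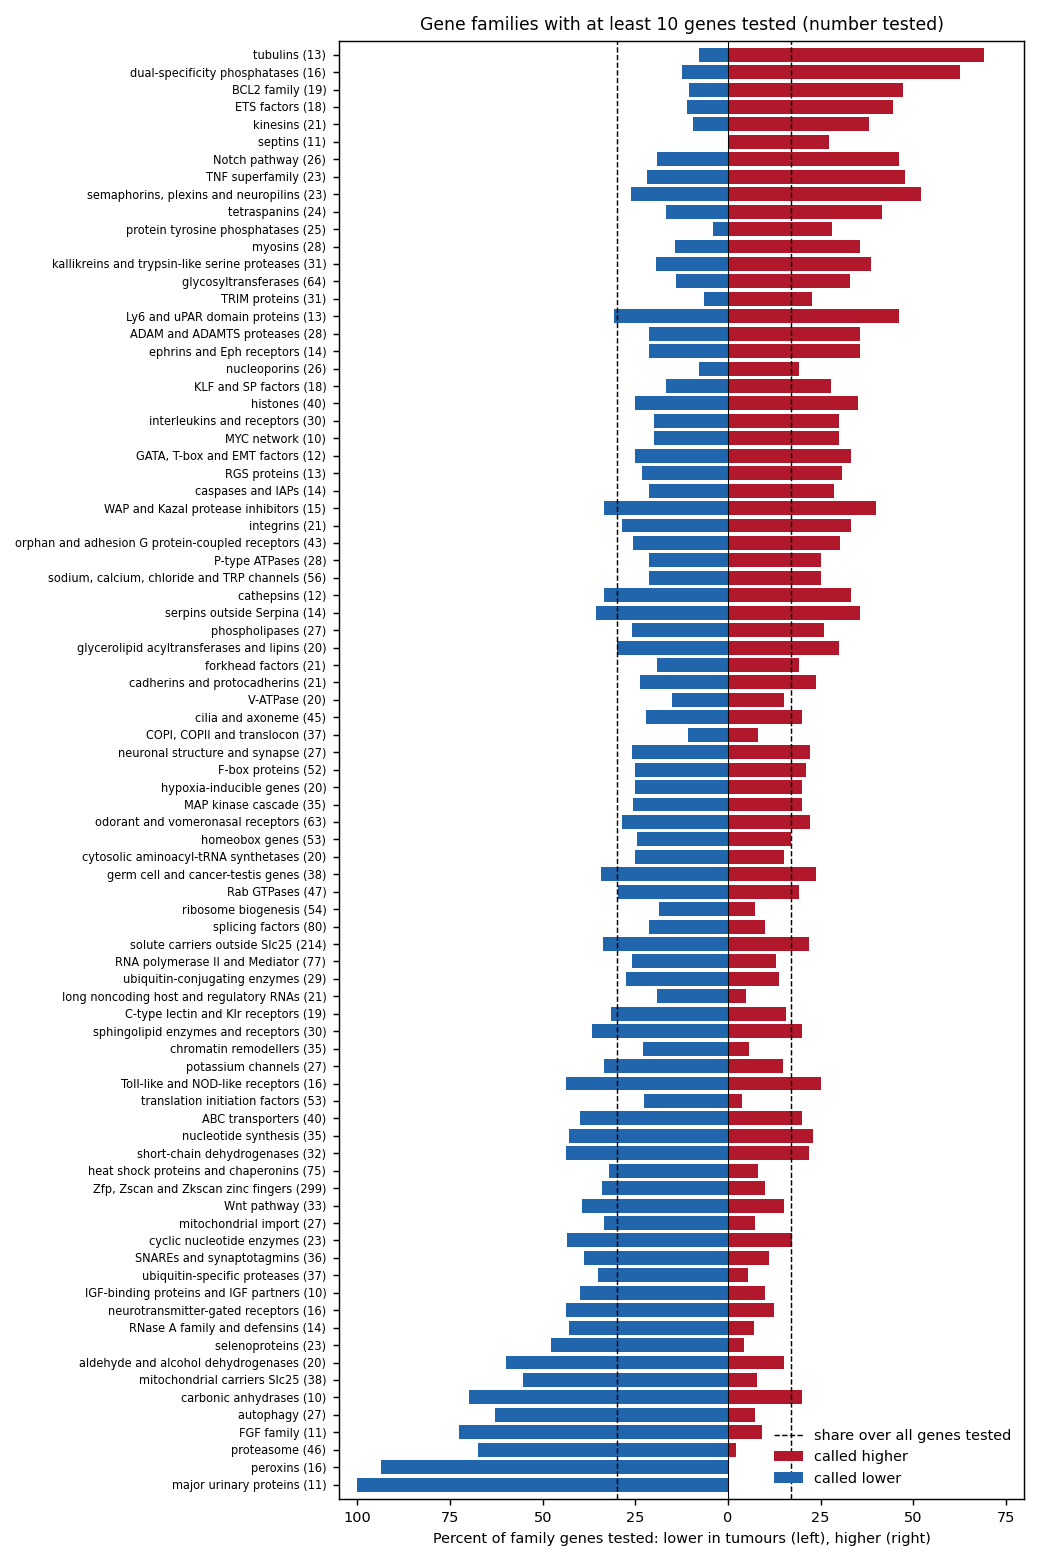
Percent of the tested genes of each family called lower (left) and higher (right) in tumours, for the 83 families with at least 10 genes tested, sorted by the difference. Dashed lines give the shares over all genes, 29.9% and 17.1%. Tubulins and dual-specificity phosphatases are at the top, major urinary proteins and peroxins at the bottom.

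On the cell surface, tetraspanins rose in 10 of 24 cases (41.7%) and fell in 4, with a median of 0.28, or 0.44 with the percentile over detected probes. These proteins gather integrins and receptors into membrane patches, and Cd63 marks late endosomes and exosomes. Cd63, on chromosome 10, probe at 128349813 to 128349872 on mm9, read 7.08, 7.51 and 7.22 in tumours and 2.49, 2.42 and 2.38 in non-tumour liver, a gap of more than 4 log2 units, and rose by 4.84 ± 0.15 (adjusted p = 1.4e-08). Tspan8, known from gut and from invasive carcinomas, rose by 8.43 ± 0.28, Tspan2 by 3.21 ± 0.38 and Tspan13 by 2.34 ± 0.15, whereas Tspan12 fell by 0.67 ± 0.10. The brightest uncalled members, Cd82 and Tspan31, differed by -0.14 and 0.06. The falls were 2 with the sample number as a block, without tumour 3 or without non-tumour array 1.

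Semaphorins, their plexin receptors and neuropilins steer axons and vessels. Of 23 tested, 12 rose (52.2%) and 6 fell, with a median of 0.34, or 0.54 after quantile normalization. Plxnb1, a receptor of Sema4d, rose by 4.37 ± 0.42 and Sema4d itself by 2.14 ± 0.41. Sema3g was at least 6.61-fold higher and Plxna3 at least 5.55-fold. Both neuropilins fell: Nrp1 read -0.69, -0.54 and -0.58 in tumours and 0.83, 1.24 and 0.90 in non-tumour liver, with no overlap, and differed by -1.59 ± 0.20 (adjusted p = 0.00012), and Nrp2 by -1.06 ± 0.11. Sema5b was at least 5.76-fold lower. Ligand and receptor genes thus moved both ways within the family.

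Integrins, the receptors for matrix, moved both ways. Itga11, a collagen receptor of stromal cells, rose by 3.81 ± 0.32, the laminin receptors Itga6 and Itga3 rose by 2.24 ± 0.32 and 1.64 ± 0.14, and Itgav by 0.69 ± 0.14. Of the leukocyte integrins, Itgb7 fell by 1.44 ± 0.32 and Itgax rose by 2.23 ± 0.41. The common beta chain Itgb1 differed by 0.11, without a call. In all 7 of 21 rose and 6 fell, and without non-tumour array 1 the falls were 3. Among cadherins, the epithelial Cdh1 read 3.48, 4.02 and 4.0 in tumours and -0.26, -0.27 and -2.98 in non-tumour liver and rose by 5.0 ± 0.67 (adjusted p = 0.00016), Fat1 rose by 1.47 ± 0.18, Pcdh17 was at least 5.03-fold higher, and 5 of 21 members rose and 5 fell, the falls being 3 without tumour 3 or with the sample number as a block. The third non-tumour array of Cdh1 lay more than 2 log2 units below the other two. In the Ly6 group, 6 of 13 rose and 4 fell: Plaur, the urokinase receptor, rose by 2.70 ± 0.43, and Ly6a, a marker of endothelial and stem cells, differed by -3.83 ± 0.55. Of ephrins and Eph receptors 5 of 14 rose, among them Efnb2 by 2.16 ± 0.28, and 3 fell, the falls being 1 with the sample number as a block or without non-tumour array 1.

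Among ligands and receptors, the TNF superfamily stood out by its rises, 11 of 23 (47.8%) against 5 falls, with a median of 0.55, or 0.30 after normexp background correction. These are the costimulatory and death receptors with their ligands. Tnfrsf18, which costimulates T cells, read 3.05, 4.04 and 2.87 in tumours and -3.92, -3.88 and -2.83 in non-tumour liver and rose by 6.87 ± 0.50 (adjusted p = 3.2e-06). Cd40, the receptor of antigen-presenting cells and of some epithelia, read 1.33, 2.0 and 1.66 in tumours and -3.96, -4.83 and -3.36 in non-tumour liver and was at least 31.3-fold higher (adjusted p = 1.2e-05). Both genes had 3 tumours above all non-tumour arrays. Ltb, the lymphotoxin beta chain, rose by 4.92 ± 0.33, and the receptor of TWEAK, Tnfrsf12a, by 4.41 ± 0.29, while its ligand Tnfsf12 differed by -0.23 without a call. The decoy receptor gene Tnfrsf23 rose by 2.35 ± 0.37 and Tnfrsf21 by 2.02 ± 0.25. Ngfr, the neurotrophin receptor that also marks stellate cells, fell by 2.49 ± 0.24. Of 7 tested T and NK cell markers, 1 was higher and 1 lower, Cd4 by 1.88 ± 0.27 and Nkg7 by -0.31 ± 0.08, the latter not called with the sample number as a block (adjusted p = 0.065) or under the 3 other scalings. The median of the 7 was 0.16. Their summed signal, in which the brightest gene weighs most, was 7.02 to 7.46 against 4.98 to 5.87, and is not read as a rise of the 7 together. Cd3d, Cd8a, Gzmb, Klrb1c and Ncr1 had no probe past the filter, and the T cell receptor chain Cd3e differed by -0.09 without a call. Of 5 B and plasma cell markers the plasma cell gene Mzb1 was at least 2.01-fold higher and Jchain differed by 1.32 ± 0.40 (adjusted p = 0.02), a call lost without tumour 2 or non-tumour array 1 or 3 (adjusted p from 0.052 to 0.076 by limma), with sums of 2.51 to 2.91 against 1.95 to 2.35, and Ms4a1 and Pax5 had no probe past the filter. The part of these cells in the counts of the superfamily was not tested.

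The Notch pathway, in which membrane ligands release a transcriptional activator from the receptor of the next cell, rose in 12 of 26 cases (46.2%) and fell in 5, with a median of 0.29, or 0.20 to 0.45 under the other scalings and normexp. The ligand Jag1 rose by 1.08 ± 0.26, the receptors Notch3 and Notch4 by 0.94 ± 0.24 and 0.93 ± 0.14, and the target genes Hes1 and Hey1 by 1.84 ± 0.27 and 1.20 ± 0.16. Hes1 read 0.07, 1.08 and 0.78 in tumours and -1.60, -0.91 and -1.09 in non-tumour liver, with no overlap. The inhibitor Numbl was at least 2.42-fold higher, and Notch2 differed by 0.14 without a call. In the Wnt pathway falls outnumbered rises, as they did over all genes. Of 33 tested, 13 were lower (39.4%, against 29.9% over all genes) and 5 higher (15.2%, against 17.1%). The median was -0.23, or -0.08 with the percentile over detected probes, where all genes stood at 0.03. The ligands Wnt5b and Wnt4 differed by -1.96 and -1.85 and the LGR5 ligand Rspo3 by -2.33 ± 0.28, while the receptor Fzd3 was at least 9.11-fold higher. The rises of the pathway were 3 without tumour 2 or without non-tumour array 1. Of the hedgehog pathway 8 genes were tested: the ligand Ihh differed by -3.29 ± 0.69, the ligand Dhh was at least 4.98-fold higher and the decoy Hhip at least 6.51-fold lower.

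The FGF family fell in 8 of 11 cases (72.7%) and rose in 1, with a median of -0.81. Fgf1 read 3.34, 2.97 and 3.29 in tumours and 4.92, 4.78 and 4.78 in non-tumour liver and differed by -1.62 ± 0.17 (adjusted p = 4.0e-05). Klb, the coreceptor through which liver answers gut FGF, differed by -1.21 ± 0.14 and its partner Fgfr4 by -0.81 ± 0.12. Fgfr2, the epithelial receptor, was the member that rose, by 0.86 ± 0.22. Interleukins and their receptors rose in 9 of 30 cases and fell in 6: the interleukin 1 antagonist Il1rn was at least 14.3-fold higher, the alarmin Il33 rose by 2.76 ± 0.32, and Il1rap, the shared chain of the interleukin 1 receptors, fell by 2.06 ± 0.17. Of Toll-like and NOD-like receptors 4 of 16 rose and 7 fell. Tlr1 read 1.33, 1.53 and 1.06 in tumours and -5.17, -5.33 and -5.41 in non-tumour liver and was at least 24.4-fold higher (adjusted p = 1.4e-09). Tlr6 and Tlr2 rose by 1.65 ± 0.23 and 1.38 ± 0.27, and the flagellin receptor Tlr5 differed by -2.92 ± 0.57. The C-type lectins were near the shares of all genes, 6 of 19 lower (31.6%) and 3 higher. The Kupffer cell receptor Clec4f differed by -2.27 ± 0.18 and is itself among the 12 macrophage markers given above, of which 10 fell.

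Inside the cell, the dual-specificity phosphatases had the second largest share of rises among families with at least 10 genes tested, 10 of 16 (62.5%) against 2 falls, with a median of 0.82. They dephosphorylate MAP kinases, and several are induced by the kinases they switch off. Dusp6, which acts on ERK, read 5.78, 5.77 and 5.38 in tumours and 3.49, 3.77 and 3.02 in non-tumour liver and rose by 2.22 ± 0.27 (adjusted p = 8.7e-05). Dusp5 read -1.07, -0.85 and -1.21 in tumours and -5.01, -5.18 and -5.31 in non-tumour liver and was at least 4.79-fold higher. For both genes every tumour array lay above every non-tumour array. Dusp14 rose by 0.93 ± 0.18 and Dusp7 by 0.78 ± 0.16. After normexp background correction 6 of the family were called higher and its median was 0.28. Classical tyrosine phosphatases rose in 7 of 25 cases (28.0%) and fell in 1, and while Ptprd fell by 1.60 ± 0.15, Ptpre rose most, by 3.16 ± 0.32. Without tumour 1 the falls were 3, and the family median, 0.02, was -0.05 with the median as scale. The MAP kinases themselves gave 7 rises and 9 falls of 35, with Map4k4 at 2.15 ± 0.12 and Mapk15 at -2.0 ± 0.27. These counts reversed with the scaling, to 9 and 6 after quantile normalization and 10 and 4 with the percentile over detected probes. Over all genes the counts were 4122 and 4450 in the former and 4404 and 3869 in the latter. In the family 3 rises were called with the sample number as a block.

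BCL2 proteins govern mitochondrial cell death, and 9 of 19 rose (47.4%), all by at least 2-fold, against 2 falls. Both inhibitors and promoters of death were among them. Bcl2 read -0.64, 0.52 and -0.04 in tumours and -1.89, -2.31 and -1.66 in non-tumour liver, with no overlap. It rose by 1.90 ± 0.26 and Bcl2l1 by 1.23 ± 0.10, and Bok by 1.64 ± 0.20, while the death promoters Bcl2l11 and Pmaip1 were at least 4.14-fold and at least 2.89-fold higher. Mcl1 differed by 0.11 without a call. Enzymes of cyclic nucleotides fell in 10 of 23 cases (43.5%) and rose in 4, the rises being 2 without tumour 3 or non-tumour array 1. The phosphodiesterases Pde5a and Pde3b differed by -2.08 and -1.44, and Pde6c, known from cone photoreceptors, rose by 5.18 ± 0.31.

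**Figure D4:**
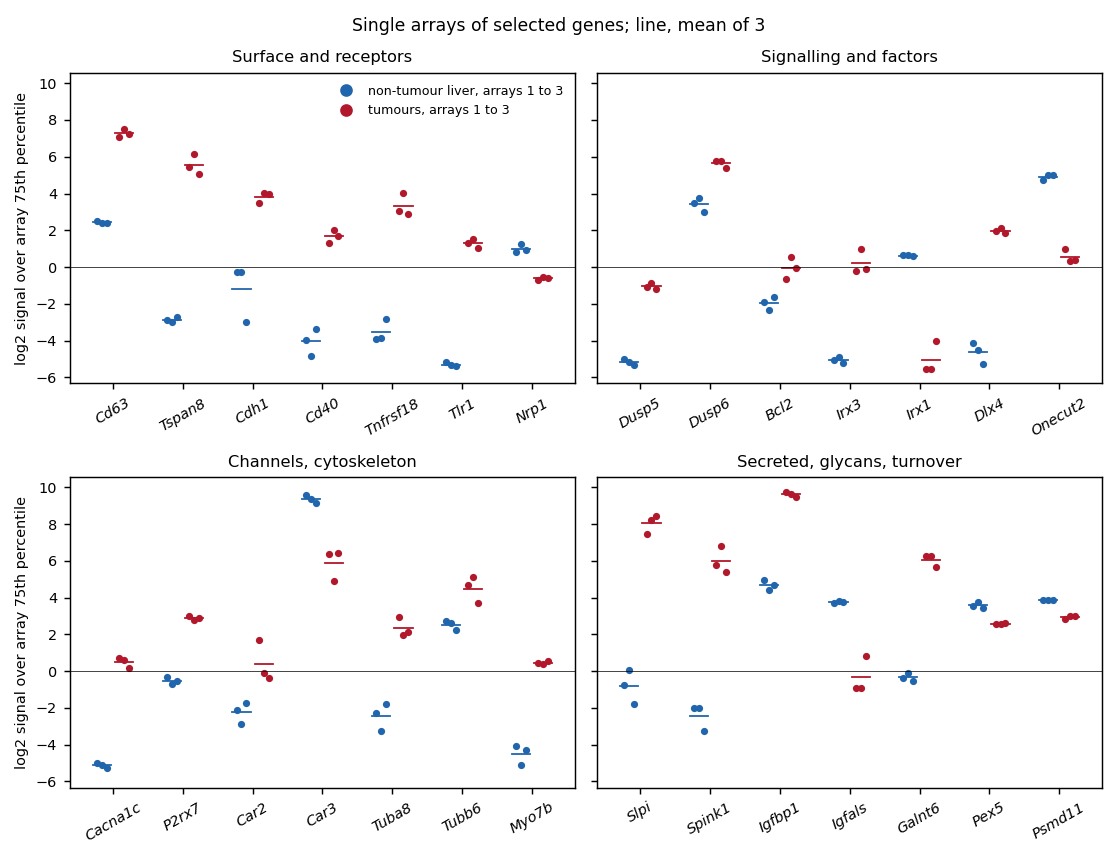
Log2 signal of each array for 28 genes, in 4 panels; points are the 3 non-tumour and 3 tumour arrays and lines their means. The 28 genes were picked by hand among called genes. Their groups do not overlap, which also held in 56.4% of all genes tested. Nrp1, Irx1, Onecut2, Car3, Igfals, Pex5 and Psmd11 are the 7 that are lower in tumours.

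Among transcription factors, homeobox genes stood near or below the shares of all genes: 9 of 53 rose (17.0%) and 13 fell (24.5%), and with the percentile over detected probes the counts were 13 and 9, and with the median as scale 5 and 13. Within the Iroquois group 2 of 3 tested genes moved in opposite directions, and Irx4 differed by -0.30 without a call. Irx3 read -0.23, 0.97 and -0.09 in tumours and -5.08, -4.88 and -5.25 in non-tumour liver and was at least 11.5-fold higher (adjusted p = 7.2e-07), and Irx1 read -5.56, -5.56 and -4.01 in tumours and 0.63, 0.63 and 0.61 in non-tumour liver and was at least 16.9-fold lower (adjusted p = 1.0e-06). Dlx4 was at least 38.8-fold higher, from -4.14, -4.53 and -5.27 to 1.95, 2.14 and 1.83. Onecut2, a partner of the hepatocyte factor HNF6 in liver development, read 0.97, 0.35 and 0.37 in tumours and 4.73, 4.99 and 4.99 in non-tumour liver and fell by 4.34 ± 0.19. Hoxd4 was at least 5.23-fold lower and the LIM factor Lhx2 fell by 2.54 ± 0.17.

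ETS factors, several of which act below ERK, rose in 8 of 18 cases (44.4%) and fell in 2. Etv4 rose by 2.18 ± 0.21 and Etv5 by 1.41 ± 0.16, Spdef, a factor of goblet cells, was at least 4.84-fold higher, and Etv1 fell by 0.97 ± 0.14. In the MYC network Mycn read 1.27, 1.13 and 0.69 in tumours and -2.85, -2.92 and -5.38 in non-tumour liver and rose by 4.75 ± 0.68 (adjusted p = 0.00026), Mycl rose by 2.15 ± 0.27, and the partner Max differed by 0.02 without a call. Sox4, active in progenitor and tumour cells, rose by 2.69 ± 0.26, and Sox17 by 2.11 ± 0.36. Of KLF and SP factors 5 of 18 rose and 3 fell: Klf6 rose by 1.58 ± 0.15, and the glucocorticoid targets Klf15 and Klf9 differed by -1.08 and -1.0. The rises were 8 with the percentile over detected probes, and 3 with the median as scale, with the sample number as a block, without tumour 2 or without non-tumour array 2. Foxm1, a factor of dividing cells, rose by 1.68 ± 0.41, and Foxn3 fell by 1.29 ± 0.17. The large Zfp, Zscan and Zkscan group of zinc fingers was weighted downward, 102 of 299 lower (34.1%) and 30 higher (10.0%), though with the percentile over detected probes 64 were lower and 47 higher. Zfp462 was at least 8.80-fold higher and Zfp365 at least 5.83-fold, and 14 of the group rose by at least 2-fold.

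Sodium, calcium, chloride and TRP channels were split, 14 higher and 12 lower of 56, or 11 and 12 with the median as scale. Cacna1c, the pore of the L-type calcium channel, read 0.72, 0.62 and 0.17 in tumours and -4.97, -5.11 and -5.25 in non-tumour liver and was at least 14.0-fold higher (adjusted p = 1.2e-08). P2rx7, the ATP-gated channel of macrophages, rose by 3.40 ± 0.14, while 10 of 12 macrophage markers fell. The epithelial sodium channel subunit Scnn1a differed by -3.69 ± 0.36, the bile acid-sensitive channel Asic5 by -3.51 ± 0.19 and the chloride channel Clcn2 by -2.48 ± 0.17. Potassium channels fell in 9 of 27 cases and rose in 4, among them Kcna4 by 1.85 ± 0.23.

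The carriers of the inner mitochondrial membrane, Slc25, were weighted downward, 21 of 38 lower (55.3%) and 3 higher, with a median of -0.52. After quantile normalization 17 were lower and 5 higher. Slc25a13, the aspartate and glutamate carrier of the urea cycle, read 3.30, 3.30 and 3.46 in tumours and 5.28, 5.38 and 5.35 in non-tumour liver, with no overlap, and fell by 1.98 ± 0.08 (adjusted p = 6.7e-08). Slc25a15, the ornithine carrier, differed by -1.57 ± 0.17, Slc25a42, the coenzyme A carrier, by -1.67 ± 0.13, Slc25a51, the NAD carrier, by -1.58 ± 0.13 and the dicarboxylate carrier Slc25a10 by -1.30 ± 0.10. Slc25a30 rose by 1.92 ± 0.39. The adenine nucleotide carrier Slc25a5 differed by -0.15 and the citrate carrier Slc25a1 by 0.17, both without a call. Other solute carriers were nearer to the shares of all genes, 47 higher and 72 lower (33.6%) of 214, or 63 and 61 with the percentile over detected probes. Slco2b1, an organic anion carrier, differed by -4.67 ± 0.35 and Slc22a7, of another family, by -4.14 ± 0.34, and the magnesium carrier Slc41a3 rose by 4.41 ± 0.18. Among ABC transporters, Abcd2, which carries fatty acids into peroxisomes, was at least 8.0-fold higher, the drug exporter Abcb1a rose by 2.52 ± 0.30 and the bile salt pump Abcb11 fell by 1.47 ± 0.15. In all 8 of 40 ABC transporters rose and 16 fell.

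Carbonic anhydrases, which interconvert carbon dioxide and bicarbonate, fell in 7 of 10 cases and rose in 2, with a median of -1.51, or -0.70 after normexp background correction. With the median as scale 1 rose. Car3 read 6.39, 4.90 and 6.44 in tumours and 9.57, 9.37 and 9.15 in non-tumour liver and fell by 3.45 ± 0.37 (adjusted p = 3.6e-05). The mitochondrial Car5a differed by -1.94 ± 0.26 and Car14 by -2.31 ± 0.34. Car2 moved the other way, 1.71, -0.11 and -0.34 in tumours and -2.10, -2.85 and -1.73 in non-tumour liver, and rose by 2.65 ± 0.52 (adjusted p = 0.0019). Both are cytosolic forms, and their groups did not overlap in either direction.

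In the cytoskeleton, tubulins had the largest share of rises among families with at least 10 genes tested, 9 of 13 (69.2%) with 1 fall, and a median of 0.98. Tuba8, of muscle and testis, rose by 4.81 ± 0.49. Tubb6 read 4.67, 5.11 and 3.71 in tumours and 2.74, 2.60 and 2.21 in non-tumour liver, with tumour 3 lowest of the tumours, and rose by 1.98 ± 0.40 (adjusted p = 0.0022). Tuba1b rose by 1.26 ± 0.16, with a second probe at 0.19 that was not called, and Tubb5 by 0.98 ± 0.15. The 2 gamma tubulins, which nucleate microtubules, moved in opposite directions, Tubg2 by 1.99 ± 0.16 and Tubg1 by -0.66 ± 0.13. Motors on these tracks, the kinesins, rose in 8 of 21 cases and fell in 2: the mitotic Kif20a rose by 3.14 ± 0.39, and Kif17 fell by 1.99 ± 0.14. Falls were 4 with the sample number as a block, without tumour 1 or without non-tumour array 3. Stmn1, which destabilises microtubules, rose by 2.38 ± 0.29. Among myosins 10 of 28 rose and 4 fell. Myo7b, the motor of the intestinal brush border, read 0.46, 0.41 and 0.54 in tumours and -4.07, -5.12 and -4.31 in non-tumour liver and was at least 13.7-fold higher (adjusted p = 1.7e-07), and Myh9 of non-muscle cells rose by 1.01 ± 0.11. Of septins 3 of 11 rose and none fell by limma, with Septin3 and Septin11 at 1.07 ± 0.19 and 1.06 ± 0.13.

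Among secreted proteins, inhibitors with a WAP, Kazal or Kunitz domain made some of the largest changes, 6 higher and 5 lower of 15. Slpi, an inhibitor of neutrophil elastase, read 7.49, 8.24 and 8.45 in tumours and -0.75, 0.08 and -1.78 in non-tumour liver. Wfdc15b rose by 4.86 ± 0.34 and Wfdc12 by 3.61 ± 0.19, Wfdc15a was at least 13.4-fold higher, and Wfdc21 fell by 4.54 ± 0.45. All 3 tumours lay far above non-tumour liver for Slpi. The falls of the group were 3 with the sample number as a block, after quantile normalization or without non-tumour array 1. Among serpins outside the Serpina group, Serpine2 was at least 6.89-fold lower. With the proteases, 12 of 31 kallikreins and trypsin-like enzymes rose and 6 fell, and of the ADAM and ADAMTS group 10 of 28 rose and 6 fell. Adamts14, which trims procollagen, rose by 4.62 ± 0.21, and Adam11 fell by 4.44 ± 0.31, though a second Adam11 probe differed by -0.42.

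The carriers of insulin-like growth factors moved apart. Igfbp1, induced in liver by fasting and stress, read 9.78, 9.63 and 9.47 in tumours and 4.95, 4.42 and 4.68 in non-tumour liver and rose by 4.94 ± 0.75 (adjusted p = 0.00037). Igfals, which stabilises the circulating complex, read -0.93, -0.92 and 0.84 in tumours and 3.69, 3.80 and 3.74 in non-tumour liver and fell by 4.08 ± 0.39 (adjusted p = 1.8e-05), and Igfbp5 and Igfbp4 differed by -3.01 and -0.96. Of 10 tested partners 1 rose and 4 fell. In the RNase A group, Rnase4, on chromosome 14 beside Ang with which it shares a promoter, read 8.21, 4.58 and 5.74 in tumours and 8.50, 8.27 and 8.19 in non-tumour liver, with tumour 1 highest of the tumours, and differed by -2.14 ± 0.68 (adjusted p = 0.025). Its call was lost with the sample number as a block (adjusted p = 0.081) and when any of these arrays other than tumour 1 was left out (adjusted p from 0.051 to 0.079 by limma). Ang was called lower too, and that call was also lost with the block. The antimicrobial peptide gene Defb1 was at least 5.67-fold higher.

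Enzymes that build glycans were weighted upward. Of 64 glycosyltransferases and related sulfotransferases 21 rose (32.8%), 13 of them by at least 2-fold, and 9 fell, of which 1 reached 2-fold. Galnt6, which starts mucin-type chains, lies on chromosome 15, probe at 100522237 to 100522296 on mm9 and read 6.25, 6.28 and 5.66 in tumours and -0.36, -0.09 and -0.51 in non-tumour liver, a gap of more than 5 log2 units, and rose by 6.38 ± 0.17 (adjusted p = 4.8e-09). A second Galnt6 probe gave 5.89. B4galt6, which makes lactosylceramide, was at least 17.1-fold higher and Galnt12 at least 5.72-fold. St3gal2 and St8sia4, which add sialic acid, rose by 1.78 ± 0.15 and 1.36 ± 0.18, and Extl1, of heparan sulfate synthesis, fell by 2.72 ± 0.19. The family median was 0.02, and -0.06 with the median as scale.

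Among lipid enzymes, Pla2g2e, a secreted phospholipase, was at least 9.80-fold higher, S1pr3, a receptor of sphingosine phosphate, rose by 2.68 ± 0.35 and S1pr1 fell by 0.87 ± 0.13. Of the acyltransferases and lipins that make glycerolipids 6 of 20 rose and 6 fell, with a median of 0.04. The mitochondrial acyltransferase Gpam rose by 1.31 ± 0.26, while Gpat3, Gpat4, Agpat2 and Dgat2 were lower, at -1.25, -1.24, -1.11 and -0.73. Aldehyde and alcohol dehydrogenases fell in 12 of 20 cases and rose in 3. Aldh1a1, which makes retinoic acid, differed by -3.07 ± 0.18, Adh4 by -2.99 ± 0.21, and Aldh1l2, the mitochondrial folate enzyme, was at least 2.61-fold higher. Mitochondrial folate enzymes rose with it, Mthfd1l by 3.20 ± 0.24 and Mthfd2l by 1.49 ± 0.16, but Shmt2 fell by 1.41 ± 0.11. In nucleotide synthesis 8 of 35 rose and 15 fell: Rrm2 of deoxynucleotide supply rose by 2.46 ± 0.34, Ctps2 by 2.32 ± 0.15, and Tk1 and Paics differed by -1.54 and -1.24. Rises in this group were 5 without tumour 1 or without non-tumour array 3, and with the percentile over detected probes 11 rose and 10 fell.

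Selenoproteins fell in 11 of 23 cases (47.8%) and rose in 1, or fell in 10 and rose in 5 after quantile normalization. Gpx1, the main cytosolic glutathione peroxidase, read 7.72, 6.80 and 7.51 in tumours and 9.81, 9.79 and 9.83 in non-tumour liver and fell by 2.46 ± 0.19 (adjusted p = 5.5e-06), while Gpx4, which protects membranes, differed by 0.06 without a call, though quantile normalization called it higher. Genes induced by low oxygen moved both ways, 4 higher and 5 lower of 20, or 6 and 4 after quantile normalization: Pfkfb4 and Ddit4 rose by 1.5 ± 0.19 and 1.07 ± 0.21, and Pdk1, P4ha2 and Bnip3 differed by -1.70, -1.84 and -1.34.

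Of the machinery of gene expression, splicing factors and translation initiation factors had few changes of 2-fold. Of 80 splicing factors 8 were called higher and 17 lower, 1 and 0 of them by 2-fold. The counts were 20 and 13 after quantile normalization and 2 and 8 with the sample number as a block, and 5 were higher without tumour 1 or 2 or non-tumour array 1, so no direction is given. Translation initiation factors gave 2 higher and 12 lower of 53 with none higher by 2-fold, and 9 and 7 after quantile normalization. The 2 rises lost their call with the sample number as a block or without non-tumour array 2. Ribosome biogenesis factors gave 4 higher and 10 lower of 54, or 7 and 5 after quantile normalization, and 6 lower with the sample number as a block or without tumour 2 or 3 or non-tumour array 1 or 2. The coat and translocon proteins of the secretory pathway were called in 7 of 37 cases, 3 higher and 4 lower, shares of 8.11% and 10.8%, or 8 and 1 after quantile normalization. Without non-tumour array 1, 1 was higher. The nuclear pore gene Nup210 fell by 1.44 ± 0.17 and Nup93 rose by 1.03 ± 0.15, with a second probe at 2.87. Histone genes, mostly of the replication-dependent clusters, were 14 higher and 10 lower of 40, 6 and 1 of them by 2-fold. With the median as scale 9 were higher, and the falls were 3 after quantile normalization and 5 without tumour 3 or without non-tumour array 1. Med13, a subunit of the kinase module of Mediator, rose by 2.04 ± 0.25.

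Peroxins, which build peroxisomes and import their enzymes, fell in 15 of 16 cases (93.8%), and none was called higher under the 3 other scalings or normexp background correction, which called 12 to 14 of them lower. The median was -0.65, and no member reached a difference beyond -1.05 ± 0.13, that of Pex16. Pex5, the receptor that carries enzymes to the peroxisome, read 2.59, 2.55 and 2.64 in tumours and 3.56, 3.74 and 3.45 in non-tumour liver, with no overlap, and fell by 0.99 ± 0.11 (adjusted p = 4.1e-05). Pex6, part of the motor that recycles it, fell by 0.84 ± 0.08, and Pex11a, which divides peroxisomes, differed by -0.96. Pex3 differed by -0.20 and was the member not called.

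Proteasome genes fell in 31 of 46 cases (67.4%) by small amounts, with a median of -0.37, and none of the falls reached 2-fold. After quantile normalization 17 were lower and 4 higher with a median of -0.13, with the percentile over detected probes 19 and 4, and with the median as scale 20 and 1. Psmd11, which sets the assembly of the regulatory cap, read 2.83, 3.01 and 3.02 in tumours and 3.89, 3.88 and 3.88 in non-tumour liver, with no overlap, and fell by 0.93 ± 0.08 (adjusted p = 7.6e-06). Psmd2 and Psma5 differed by -0.73 and -0.68, and the activator Psme3 rose by 1.71 ± 0.23. Autophagy genes fell in 17 of 27 cases and rose in 2, with a median of -0.52, and 13 to 17 fell under the 3 other scalings or normexp. Rises were 4 with the percentile over detected probes. Map1lc3a and Gabarapl1, which coat the autophagosome, both fell by 1.41, Ulk2 differed by -1.10 ± 0.13 and Atg5 by -0.93 ± 0.15. Ulk1, the starting kinase, moved the other way and rose by 1.46 ± 0.18. The LC3 gene Map1lc3b differed by -0.14 without a call.

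Other parts of protein turnover moved in different ways, against 17.1% higher and 29.9% lower over all genes. TRIM ligases were 7 higher (22.6%) and 2 lower (6.45%) of 31, led by Trim59 at 2.56 ± 0.41. The 2 falls lost their call without tumour 2 or non-tumour arrays 2 or 3. Of F-box genes, Fbxw15, of an oocyte cluster on chromosome 9, was at least 18.2-fold higher. Chaperones were 6 higher (8.0%) and 24 lower (32.0%) of 75, the falls being 15 with the percentile over detected probes. The small heat shock proteins Hspb1 and Hspb6 differed by -2.39 and -1.84. Hspa8 and Hspa5 differed by 0.23 and -0.29 without a call, and Dnajc19 had one probe at 1.83 and another at -0.59.

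Families restricted to other tissues served as a view of dim probes. Of 1341 odorant and vomeronasal receptors on the array, 63 passed the filter on dim probes, and 14 of these were called higher and 18 lower, shares of 22.2% and 28.6% near those of all genes. Without the filter 95 of the receptors were called lower, beside 5322 of all 34741 genes tested that way, so the larger count is not read as a fall of the family. Germ cell and cancer-testis genes gave 9 higher and 13 lower of 38, with Tex33 at least 3.86-fold higher and the meiotic Tex12 at least 2.84-fold lower.

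The 3 tumours were also compared with each other, by genes with a wide range between them and a narrow range in non-tumour liver. Genes with smaller ranges, or that also varied in non-tumour liver, were left out. A range of at least 4 log2 units between tumours, with a range below 1 in non-tumour liver, was found in 31 genes, chosen by these values, which are given without a test. Tumour 1 was the highest of the tumours in 24 of the 31 and tumour 2 the lowest in 23. Rhbg, an ammonium transporter of hepatocytes around the central vein, read 4.38, -1.08 and 0.22 in tumours and 2.69, 2.22 and 2.58 in non-tumour liver. Lgr5, the receptor of R-spondins, read 2.50, -2.28 and -1.65 in tumours and 0.47, -0.17 and 0.25 in non-tumour liver, and Sp5, a Wnt-induced transcription factor, read 1.18, -3.67 and -3.19 in tumours and -0.69, -0.83 and 0.11 in non-tumour liver. In all 3 genes tumour 1 lay above the non-tumour arrays and tumours 2 and 3 below them. Tbx3, another Wnt-responsive factor, read 2.97, -1.04 and 0.03 in tumours and 3.52, 3.16 and 3.68 in non-tumour liver, so tumour 1 lay just below the non-tumour range and the others far below it. Cpe, a prohormone-processing enzyme, read 2.31, -3.35 and -3.96 in tumours and -2.63, -2.13 and -2.79 in non-tumour liver, high in tumour 1 alone, and so did the X-linked Xlr3b, at 2.60, -2.83 and -3.90 in tumours and -1.29, -2.23 and -1.59 in non-tumour liver. Fermt2, an integrin activator, read 7.57, 3.14 and 3.28 in tumours and 4.43, 4.35 and 4.43 in non-tumour liver, 3 log2 units above the non-tumour arrays in tumour 1 and about 1 below them in the others. A second Fermt2 probe was lower in tumours, at -1.18 ± 0.15 (adjusted p = 0.00011 by limma). Its SE was far below the 0.91 of the first probe, so the high value in tumour 1 rests on the first probe alone. Lhpp, a phosphatase, read 4.95, 0.02 and 1.29 in tumours and 4.95, 4.68 and 5.22 in non-tumour liver, and the calcium-binding Cib2 read 4.41, -0.27 and 0.12 in tumours and 2.99, 2.56 and 2.86 in non-tumour liver. Not all of the set followed tumour 1: Dct, a pigment enzyme, read -5.48, -1.58 and -0.59 in tumours, lowest in tumour 1, Mmd2 was higher in tumour 3 than in the others (-5.50, -5.52 and -0.89), and the adaptor Fyb, known from T cells, was highest in tumour 3 (-0.71, -1.92 and 2.12).

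**Figure D5:**
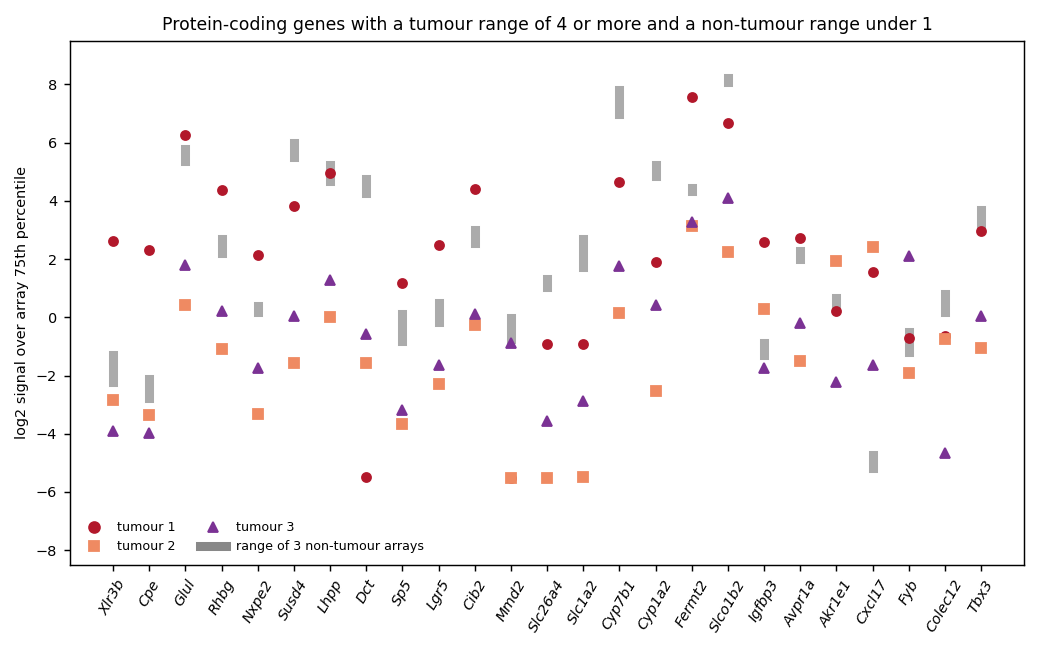
Log2 signal of tumours 1, 2 and 3 (symbols) and the range of the 3 non-tumour arrays (grey bars) for the 25 protein-coding genes with a tumour range of 4 or more and a non-tumour range under 1. Tumour 1 is the top symbol for most genes, above the grey bar for Rhbg, Lgr5, Sp5, Cib2, Cpe and Fermt2. Fermt2 is drawn by its brighter probe, from which its other probe differed.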

How the data were processed

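RNA of 12 livers or tumours was hybridised to 1-colour Agilent mouse arrays, 1 array per sample. The deposited scanner files give each spot's processed intensity, background-subtracted and spatially detrended within the array by Agilent Feature Extraction, per the file headers, which name version 10.7.3.1, whereas the submitters' processing notes name 12.0.3.1. The authors' value table holds the same signals as a ratio to each array's 75th percentile. From the intensities, log2 values minus that percentile were computed here from the deposited files, replicate spots were averaged, and control spots were left out. Of 55681 probes, 27235 were named by accession, 3581 by symbol and 565 by synonym through RefSeq, and 24300 kept the file's name. Probes had to be well above background on every array of some group of 3, which left 24148 probes, and the brightest probe stood for a gene (4508 genes had several). Of 61 genes in the text with several probes, 6 had one of opposite sign: Amy2a5, Dnajc19, Fermt2, Fyb, Mcl1 and Tnfsf12.

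The test was limma 3.58.1 in R 4.3.3 (lmFit, eBayes, 2-sided, Benjamini-Hochberg over 18104 genes), and it was tested on simulated data. Bounds use the mean of the bright group against the dim group raised to the lowest well-above-background signal of each array. The number of arrays limits the precision. Equal sample numbers were checked as pairs: residuals of equal numbers correlated at 0.13, 0.13 and 0.23 and those of unequal numbers from -0.15 to 0.00. Residuals were taken from each group's own mean, so positive values at equal numbers push the others down, and the contrast is not independent support. The block by number was therefore treated as a possible pairing found in the data, which the labels do not state. Alternatives were the arrays in the fit, that block, 3 scalings, normexp with an offset of 50, the authors' table, no filter, array weights, the median over probes and each array left out.

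Families, markers and lists were chosen with earlier results of these data known, so none is independent support. Some genes and a gene family are not reported here. The rule for named genes took the 40 largest changes each way, up to 6 called and 2 uncalled members per family, the genes of the runs, 15 genes of the spread and the markers. Abcb11, Agpat2, Bcl2l1, Clcn2, Ddit4, Dgat2, Dusp7, Dusp14, Fermt2, Fgfr4, Fyb, Hnf4a, Irx4, Itgav, Lhx2, Mmd2, Notch3, Notch4, Nrp1, Nrp2, Paics, S1pr1, Shmt2, Slc22a7, Slc25a10, Slc25a15, Slc41a3, St3gal2, St8sia4, Tnfrsf21, Tnfrsf23, Tspan12, Tubg1 and Wfdc12 were added after their values were seen, and the pattern of the cystatin family was corrected then. In their lower group, Bex4, Gna14, Ihh, Itga11, Mthfd1l, Mycl, Mycn, Pnpla5, Sema4d, Sox17, Sult5a1, Tlr5, Tnfrsf18, Trim59 and Upp2 were well above background on 1 of 3 arrays. Efnb2, Hey1, Hnf4aos, Igfbp5, Kif20a, Mep1b, Miox, Plaur, Plxnb1, Serpinb1a, Slc1a2, Spink1, Tceal8, Tuba8 and Wnt4 were so on 2 of 3.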

Additional observations from a re-analysis of the deposited data

How the results depend on the processing

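The counts of genes called higher or lower stayed within 1.5 times of 3090 and 5415 under all 17 alternatives run, from 2401 to 4404 higher and from 3869 to 5484 lower. Leaving out each array in turn gave 2591 to 2948 higher and 4595 to 5085 lower. The counts of at least 2-fold moved with normexp background correction, to 1046 higher and 961 lower from 1627 and 1636; the cause was not tested. With the sample number as a replicate block over the 6 arrays, 2702 genes were higher and 4370 lower, and over all 12 arrays 3066 and 5333. Of the genes named outside the set chosen by its range between tumours, that block on 6 arrays ended the call of Ang, Rnase4, Mup20 and Nkg7 and of no other. A fit of the same 6 arrays without the block ended the calls of the same genes and of Bex4. In that set the brighter probe of Fermt2, whose values chose the gene, ranged from -1.19 without tumour 1 to 1.02 without tumour 2. Slide as a random block was not run, since the tumours lie on 1 slide that holds no other group. Signal over background limits dim probes: a difference is a bound if all 3 arrays of the dimmer group lacked clear signal, and if 1 or 2 of them had it, the difference is printed as measured and is less certain. Single members of the Mup, Cyp2c, Ces1, Gsta, Klk1b and Sult2a clusters are uncertain where probes share target RNA.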
